A study of Mus musculus with 6 samples.

Results

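The insulin-like growth factor (IGF) family was examined in engineered skeletal muscle through 10 genes, which encode the 2 ligands Igf1 and Igf2, the 2 receptors Igf1r and Igf2r, and 6 IGF binding proteins (Igfbp2 to Igfbp7). The genes were taken by symbol from the deposited table of 24421 gene symbols, and all 10 were present and passed the filter on low counts. Polyadenylated RNA had been sequenced from muscle constructs of C2C12, a clonal line of mouse myoblasts, the precursor cells that fuse to form muscle fibres. The constructs were made of these cells in a type I collagen gel held between titanium artificial tendons, kept in growth medium for 2 days and then in a differentiation medium with horse serum, and force was first measured on day 14. In the TNF-alpha group 3 constructs received tumour necrosis factor alpha, an inflammatory cytokine, at 100 ng/mL for 72 h, and in the vehicle group 3 constructs received phosphate-buffered saline for the same time. The constructs came from a single cell line and the labels name no blood vessels, immune cells or other added cell type. The labels call the constructs of a group biological replicates but name no separate cultures, so each p-value is set against construct-to-construct spread only, which may be technical.

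IGF-1 and IGF-2 are secreted peptides that promote myoblast proliferation, differentiation and growth of muscle fibres. Both act through the IGF-1 receptor, a tyrosine kinase that signals through IRS adaptors, PI3 kinase and AKT to the growth regulator mTOR and the FOXO transcription factors. The IGF-2 receptor has no kinase and carries IGF-2 to lysosomes, where it is degraded. The binding proteins hold IGFs outside the cell and can restrain or prolong their action, and proteases that cleave them release the ligand. Igfbp7 is related to this family and binds IGFs with low affinity.

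The libraries held 81713008 to 93533748 counts assigned to genes. The values below are CPM, counts relative to library size, scaled between libraries with TMM (trimmed mean of M values). A transcript was said to have risen or fallen where edgeR's quasi-likelihood test gave a Benjamini-Hochberg adjusted p under 0.05 over all 15792 genes tested. In this comparison 55.5% of all tested genes passed, 27.6% upward and 27.9% downward, and in 64.5% of all tested genes the TNF-alpha libraries did not overlap the vehicle libraries.

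Both ligand transcripts and 4 of the 6 binding protein transcripts fell with TNF-alpha, Igfbp3 and Igfbp7 rose, and neither receptor passed the test. Igf1 fell 174-fold, while the other changes past the test were between 1.78-fold and 2.78-fold. In all, 6 of the 10 members fell and 2 rose, against 27.9% and 27.6% of all tested genes. The groups did not overlap for 8 of the 10, against 64.5% of all tested genes. The median log2 fold change of the members was -0.93, and that of all tested genes was 0.00. A change of at least 2-fold that passed the test was found for 6 of the 10 members and for 17.9% of all tested genes. Igfbp2 was only just past that size, at 2.02-fold. Because 55.5% of all genes passed, the number of members called says little by itself, and the description rests on sizes and directions.

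Markers of muscle, of proliferation and of other cell types moved in the same contrast. The 10 markers of differentiated muscle summed to 7936 to 9197 CPM with TNF-alpha and 11943 to 13977 CPM with vehicle, and 8 of them fell, Myog rose and Acta1 did not pass. The 6 proliferation genes summed to 23.8 to 102 CPM with TNF-alpha and 232 to 361 CPM with vehicle, and all 6 fell. Muscle transcripts were thus abundant in every library, and the labels name the cells myotubes. Of 4 markers of undifferentiated myoblasts, Pax7 fell, Myf5 rose, Vcam1 did not pass and Pax3 had too few counts to be tested. Their sum was 413 to 451 CPM with TNF-alpha and 171 to 359 CPM with vehicle, most of it Vcam1, which averaged 413 CPM with TNF-alpha and 272 CPM with vehicle. Of 5 fibroblast genes, Dpt, Col15a1 and Pi16 fell, Pdgfra rose and Tcf21 was at 0 throughout, with a sum of 44.7 to 75.8 CPM with TNF-alpha and 98.7 to 108 CPM with vehicle. Of 6 leukocyte genes, Cd68 and Csf1r rose, Itgam did not pass, and Ptprc, Adgre1 and Cd3e had too few counts to be tested. The 6 genes summed to 20.8 to 22.5 CPM with TNF-alpha and 5.29 to 5.55 CPM with vehicle. Most of this was Cd68, which averaged 19.8 CPM with TNF-alpha and 4.81 CPM with vehicle. Ptprc, which defines leukocytes, had no count with TNF-alpha and at most 4 counts with vehicle. The 4 endothelial and the 4 adipocyte markers each summed to under 1 CPM in every library. In bulk RNA, fewer cells of a type and less RNA per cell cannot be told apart, and the part of these markers in the changes of the IGF family was not tested.

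**Figure D1:**
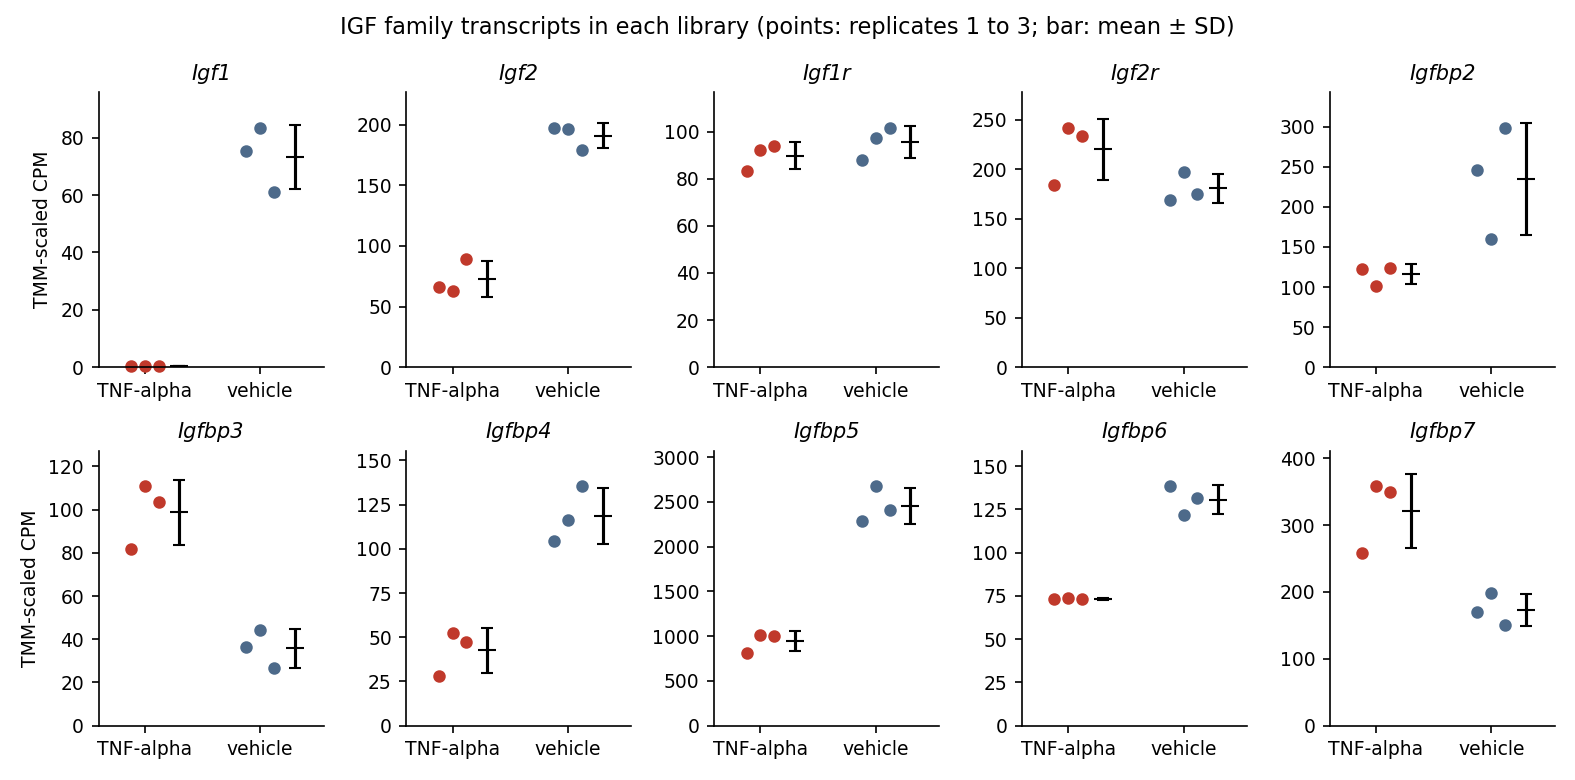
TMM-scaled CPM (vertical axes, each from 0) of the 10 IGF family transcripts in the 3 TNF-alpha libraries (red points) and the 3 vehicle libraries (blue points), with the mean and SD of each group beside them. Igf1 lay at 0.275 to 0.567 CPM with TNF-alpha and at 61.2 to 83.4 CPM with vehicle, and only the panels of Igf1r and Igf2r show groups that overlap.

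Igf1, the ligand with the main role in postnatal muscle growth, was almost lost. The Igf1 gene lies on chromosome 10 at 87858265 to 87937042 of GRCm38, plus strand, with 8 annotated transcripts. It had 53, 35 and 23 counts in TNF-alpha replicates 1 to 3, against 6280, 7815 and 5629 counts in vehicle replicates 1 to 3. Scaled for depth, Igf1 stood at 0.567, 0.408 and 0.275 CPM with TNF-alpha, against 75.4, 83.4 and 61.2 CPM with vehicle. Every TNF-alpha value lay far below every vehicle value. On the log2 scale the fold change was -7.44 ± 0.23 (SE; adjusted p = 5.34e-07), a 174-fold fall with a 95% confidence interval of 120-fold to 250-fold. The deposited Igf1 counts were whole numbers in every library.

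Among all 15792 tested genes, 3 had a more negative fitted change than Igf1. These were Inmt, an amine methyltransferase, with up to 5 counts in TNF-alpha libraries and 9906 to 14348 counts in vehicle libraries, and Fgf14 and Dcdc2a, which had no count with TNF-alpha and at most 106 and 28 counts with vehicle. The genes closest to Igf1 in their pattern over the 6 libraries were found by the root-mean-square distance of mean-centred log2 CPM over 14541 other tested genes with names. They were Fgf14 (distance 0.93 log2 units), Dpt (0.97) and Slc6a2 (1.00). None was a near match, since Dpt and Slc6a2 had log2 fold changes of -5.56 and -5.51, against -7.44 for Igf1. Fgf14 had no count with TNF-alpha and a fitted log2 fold change of -9.67, which limits its match. Dpt, encoding the matrix protein dermatopontin, had 0.653, 0.501 and 0.466 CPM with TNF-alpha, against 26.1, 25.9 and 25.1 CPM with vehicle. Dpt is also among the fibroblast markers above.

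Igf2, the fetal ligand that myoblasts make as they differentiate, fell far less. Igf2 stood at 66.2, 62.6 and 89.5 CPM with TNF-alpha, against 197, 196 and 179 CPM with vehicle. TNF-alpha replicate 3 was the highest of its group, and it still lay well under the lowest vehicle library. Its log2 fold change was -1.39 ± 0.13 (SE; adjusted p = 8.98e-05), or 2.62-fold lower. Igf2 lies on chromosome 7 at 142650766 to 142666816, minus strand. It overlaps exons of the antisense gene Igf2os on the other strand. It also overlaps exons of Gm49394, a gene annotated on the same strand that the deposited table does not list. The Igf2 counts were not whole in 5 of the 6 libraries, and the source of the fractions was not tested. Igf2os itself had 35.5, 42.0 and 81.8 counts with TNF-alpha, against 99.2, 134 and 162 counts with vehicle, and it fell with a log2 fold change of -1.25 ± 0.35 (SE; adjusted p = 0.0146).

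The list of genes near Igf2 on its chromosome held 5 genes, and all 5 fell, against 27.9% of all tested genes. Nctc1, a noncoding RNA of the region, had a log2 fold change of -1.60 ± 0.16 and the mitochondrial ribosomal protein gene Mrpl23 of -0.71 ± 0.07 (SE; edgeR adjusted p = 5.66e-05 and 4.49e-05). Tnnt3, encoding fast troponin T and also a marker of differentiated muscle, was 2.01-fold lower (edgeR adjusted p = 1.38e-05). H19, the imprinted noncoding RNA that shares enhancers with Igf2 and was named for that reason after its values were seen, had 4791 ± 371 CPM with TNF-alpha and 6722 ± 742 CPM with vehicle (SD, n = 3 each; log2 fold change -0.49 ± 0.11, edgeR adjusted p = 0.00396). Ins2, also named after its values were seen, had 27 to 45 counts with TNF-alpha and 114 to 151 counts with vehicle.

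Neither receptor transcript passed the test. Igf1r, on chromosome 7 at 67952827 to 68233668, plus strand, encodes the receptor that carries the signal of both ligands. It stood at 83.4, 92.0 and 93.9 CPM with TNF-alpha, against 87.9, 97.2 and 102 CPM with vehicle. The groups overlapped, and the log2 fold change was -0.09 ± 0.07 (SE; edgeR adjusted p = 0.328), with a 95% confidence interval of -0.26 to 0.08. On the linear scale that interval ran from 0.836 to 1.06 times the vehicle level. Igf2r, on chromosome 17 at 12682406 to 12769664, minus strand, encodes the receptor that removes IGF-2 from the cell surface. It stood at 184, 242 and 234 CPM with TNF-alpha, against 169, 197 and 175 CPM with vehicle. TNF-alpha replicate 1 lay within the vehicle range, and TNF-alpha replicates 2 and 3 above it. Its log2 fold change was 0.29 ± 0.11 (SE; edgeR adjusted p = 0.0533), with a 95% confidence interval of 0.04 to 0.54. The adjusted p was 0.00377 without TNF-alpha replicate 1 and 0.0431 without vehicle replicate 2, so the call for Igf2r depended on single libraries. Airn, a noncoding RNA on the other strand of the Igf2r locus, had 176 to 208 counts with TNF-alpha and 167 to 221 counts with vehicle.

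**Figure D2:**
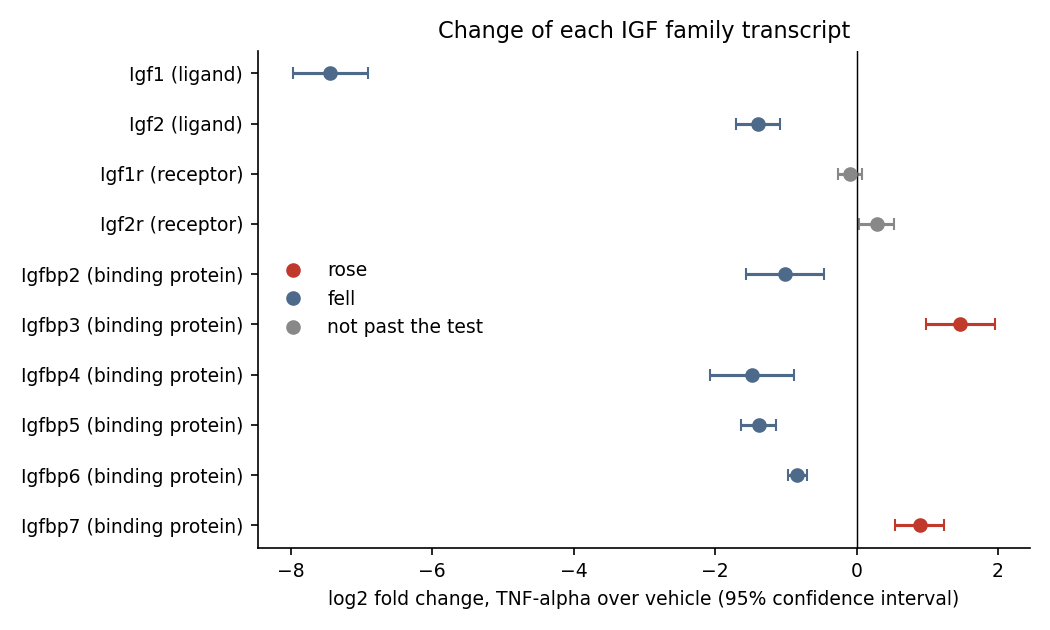
Log2 fold change of TNF-alpha over vehicle (horizontal axis) for each IGF family transcript with its 95% confidence interval, in red where it rose, blue where it fell and grey where it was not past the test. Igf1 stands alone at -7.44, the other transcripts lie between -1.47 and 1.46, and the intervals of the receptors lie closest to 0.

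The binding protein transcripts moved in both directions, and upstream sequences of a binding protein gene that rose and of 2 that fell are shown so that they can be compared. These are the 250 bases before the annotated start of Igfbp3 (chr11:7213924-7214173, minus strand), which rose, and of Igfbp4 (chr11:99040994-99041243, plus strand) and Igfbp5 (chr1:72874866-72875115, minus strand), which fell. They are from RefSeq on GRCm38.p6, written 5′ to 3′ on the strand of the gene, with matches to the motifs searched in capitals, and the last 19 bases of the Igfbp5 stretch lie within an annotated exon.
Igfbp3: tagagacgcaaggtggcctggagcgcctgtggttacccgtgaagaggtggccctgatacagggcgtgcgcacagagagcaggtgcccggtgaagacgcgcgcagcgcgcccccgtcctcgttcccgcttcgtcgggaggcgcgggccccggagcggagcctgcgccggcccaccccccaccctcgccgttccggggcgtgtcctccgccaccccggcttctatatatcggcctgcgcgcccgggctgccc
Igfbp4: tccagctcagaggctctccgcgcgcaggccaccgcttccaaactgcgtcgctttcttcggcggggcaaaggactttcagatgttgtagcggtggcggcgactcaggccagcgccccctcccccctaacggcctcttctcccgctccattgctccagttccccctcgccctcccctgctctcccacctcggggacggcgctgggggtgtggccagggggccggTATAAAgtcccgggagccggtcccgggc
Igfbp5: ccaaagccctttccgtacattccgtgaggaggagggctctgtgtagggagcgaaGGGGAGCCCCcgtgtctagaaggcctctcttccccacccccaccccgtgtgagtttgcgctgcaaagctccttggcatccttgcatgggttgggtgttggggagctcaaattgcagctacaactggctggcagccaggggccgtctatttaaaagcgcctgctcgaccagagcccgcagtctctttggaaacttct
Motifs were searched on both strands of the 14 windows that RefSeq gave for the 10 members, each 250 bases before to 50 after a start. The NF-kB motif, the binding sequence of the main transcription factor activated by TNF-alpha, was found in 1 of the 14 windows, that of Igfbp5, where it lies 196 to 187 bases before the start on the opposite strand, and in 4.51% of all 32851 windows. The AP-1 motif TGANTCA was in windows of Igf1 and Igfbp2 and in 7.81% of all windows, and the C/EBP motif TTGCNNAA was in 0 of the 14 and in 10.8% of all. The E-box CAGCTG, bound by myogenic factors, was in the window of Igf1 and in 16.3% of all windows. The TATA box letters TATAAA were in the windows of Igfbp4 and Igfbp6 and in 13.6% of all. They lie 28 to 23 bases before the start in Igfbp4 but 148 to 143 bases before it in Igfbp6. The Sp1 motif GGGCGG was in 6 of the 14 windows and in 35.7% of all. All 250 bases before the start in the Igf1 window lie within annotated exons of Igf1, and so do its AP-1 and E-box matches. The same holds for an Igf2 window with an Sp1 match. In the Igfbp2 window with the AP-1 match, 65 of the 250 bases lie within annotated exons. No searched motif was in the Igfbp3 window, which says only that these letters are not there, and the matches are a description of the sequence and not of binding.

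Igfbp3, the main IGF carrier of serum, rose the most. Its gene lies on chromosome 11 at 7206086 to 7213923, minus strand. Igfbp3 stood at 81.7, 111 and 104 CPM with TNF-alpha, against 36.3, 44.4 and 26.6 CPM with vehicle. The lowest TNF-alpha library lay above the highest vehicle library. Igfbp3 had a log2 fold change of 1.46 ± 0.20 (SE; adjusted p = 0.00105), or 2.76-fold higher. The named genes closest to Igfbp3 over the 6 libraries were Kcnmb4os2 (distance 0.10 log2 units), Birc3 (0.11) and Hist1h4a (0.12). Hist1h4a was near the floor, at 0.190 CPM on average with TNF-alpha and 0.0594 CPM with vehicle, which limits its match. Kcnmb4os2, the closest, stood at 1.71 CPM on average with TNF-alpha and 0.643 CPM with vehicle. Birc3, which encodes the ubiquitin ligase cIAP2 of the TNF receptor complex, stood at 5.77 CPM on average with TNF-alpha and 1.99 CPM with vehicle (log2 fold change 1.54 ± 0.19, edgeR adjusted p = 1.88e-04). These genes were picked for their likeness over the same 6 libraries, so a similar rise follows from the choice. Shared regulation with Igfbp3 was not tested. The adjacent gene Igfbp1 had at most 2 counts in any library.

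Igfbp7, a secreted matrix protein, rose as well. It stood at 258, 358 and 349 CPM with TNF-alpha, against 171, 199 and 150 CPM with vehicle, and the groups did not overlap. Its log2 fold change was 0.89 ± 0.15 (SE; adjusted p = 0.00174), or 1.86-fold higher. The gene, on chromosome 5 at 77349240 to 77408041, shares exonic sequence with Polr2b on the other strand, and Igfbp7 counts were not whole in 4 libraries. Polr2b, an RNA polymerase II subunit, stood at 111, 114 and 114 CPM with TNF-alpha, against 120, 116 and 111 CPM with vehicle.

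Igfbp5, the binding protein most closely tied to myoblast differentiation and the most abundant member in vehicle constructs, fell. It stood at 812, 1015 and 998 CPM with TNF-alpha, against 2282, 2673 and 2407 CPM with vehicle. Every TNF-alpha library lay below every vehicle library by a wide margin. Igfbp5 had a log2 fold change of -1.38 ± 0.11 (SE; adjusted p = 1.36e-05), or 2.61-fold lower. Its neighbour on chromosome 1, Igfbp2, a carrier that binds IGF-2 more strongly than IGF-1, stood at 123, 102 and 124 CPM with TNF-alpha, against 246, 160 and 299 CPM with vehicle. Vehicle replicate 2 was the lowest of its group for Igfbp2, yet above every TNF-alpha library. Igfbp2 had a log2 fold change of -1.02 ± 0.23 (SE; adjusted p = 0.00939), or 2.02-fold lower. The 2 genes lie end to end, Igfbp2 at 72824503 to 72852474 on the plus strand and Igfbp5 at 72857932 to 72874884 on the minus strand.

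Igfbp4, a carrier that is cleaved by the protease PAPP-A and inhibits IGF action, fell as well. Its gene lies on chromosome 11 at 99041244 to 99054392, plus strand. It stood at 28.3, 52.6 and 47.2 CPM with TNF-alpha, against 104, 116 and 135 CPM with vehicle. TNF-alpha replicate 1 was the lowest, and the groups did not overlap. Igfbp4 had a log2 fold change of -1.47 ± 0.24 (SE; adjusted p = 0.00283), or 2.78-fold lower. Without TNF-alpha replicate 1 the log2 fold change was -1.25 for Igfbp4 and -1.28 for Igfbp5, so the order of these 2 falls depended on single libraries. Igfbp6, on chromosome 15 at 102144362 to 102149511, plus strand, encodes a carrier that prefers IGF-2 over IGF-1. It stood at 72.9, 73.6 and 73.1 CPM with TNF-alpha, against 138, 122 and 132 CPM with vehicle. The 3 TNF-alpha libraries were almost equal, with a coefficient of variation of 0.509% against 6.31% in the vehicle libraries. With 6816, 6315 and 6122 counts there, the random error of counting alone would usually give a wider spread. The small value therefore does not show that the TNF-alpha constructs varied less. Igfbp6 had a log2 fold change of -0.84 ± 0.06 (SE; adjusted p = 1.05e-05), or 1.78-fold lower.

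The members differed in how much their level varied between constructs of a group. The coefficient of variation was 0.509% to 35.2% with TNF-alpha (median 14.8%) and 5.39% to 29.8% with vehicle (median 10.7%). The lowest value, that of Igfbp6 with TNF-alpha, is below the usual error of counting. The coefficient of variation has its own uncertainty with 3 libraries per group. The coefficient was highest for Igf1 with TNF-alpha, where the counts were few, and for Igfbp2 with vehicle. In each group the library with the lowest Igfbp2, replicate 2, had the highest Igfbp3. That order was noticed after the values were seen, rests on 3 libraries per group and was not tested. Transcripts of the 6 proliferation genes also differed between the vehicle constructs, summing to 329, 232 and 361 CPM in vehicle replicates 1 to 3, in the same order as Igfbp2. In TNF-alpha replicates 1 to 3 they summed to 23.8, 102 and 66.9 CPM, which is not the order of Igfbp2 there. Their part in the spread of Igfbp2 was not tested.

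To compare levels between genes, CPM were divided by the length of each gene's annotated exons. With TNF-alpha the order was Igfbp7, at 266 ± 45.9 CPM per kilobase (SD, n = 3), then Igfbp5 at 157 ± 18.8, Igfbp6 at 65.8 ± 0.33, Igfbp2 at 62.9 ± 6.81, Igfbp3 at 31.5 ± 4.85, Igf2r at 23.6 ± 3.35, Igf2 at 12.7 ± 2.55, Igfbp4 at 9.67 ± 2.89, Igf1r at 5.35 ± 0.33 and Igf1 at 0.042 ± 0.015. The libraries of Igfbp6 and Igfbp2, and of Igf2 and Igfbp4, overlapped in this order. With vehicle Igfbp5 stood first at 409 ± 33.3 CPM per kilobase, followed by Igfbp7 at 143 ± 20.2, Igfbp2 at 127 ± 37.9, Igfbp6 at 117 ± 7.41, Igf2 at 33.3 ± 1.80, Igfbp4 at 26.9 ± 3.54, Igf2r at 19.4 ± 1.58, Igfbp3 at 11.4 ± 2.84, Igf1 at 7.41 ± 1.14 and Igf1r at 5.69 ± 0.41. There the libraries of Igfbp7, Igfbp2 and Igfbp6 overlapped between neighbours. Igf1 thus stood above its receptor Igf1r with vehicle and at the bottom of the order with TNF-alpha, and Igfbp7 and Igfbp5 had changed places. With the length of the longest transcript in place of all exons, Igfbp2 moved above Igfbp6 with TNF-alpha and above Igfbp7 with vehicle, and the vehicle libraries of Igf1 and Igf1r overlapped.

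The make-up of the ligand pool differed between the groups. Igf1 made up 0.493%, 0.375% and 0.177% of the summed ligand transcripts per length in TNF-alpha replicates 1 to 3, against 18.1%, 19.7% and 16.5% in vehicle replicates 1 to 3. The ligand sum was 12.8 ± 2.53 CPM per kilobase with TNF-alpha and 40.8 ± 2.88 with vehicle (SD, n = 3 each). Nearly all ligand transcript left with TNF-alpha was therefore Igf2. These sums are of transcripts and carry no test.

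The binding protein pool was also lower with TNF-alpha, and its leading member differed; these sums carry no test either. The 6 transcripts summed to 513, 634 and 631 CPM per kilobase with TNF-alpha, against 814, 846 and 844 with vehicle. Igfbp5 made up 26.4%, 26.7% and 26.3% of the sum with TNF-alpha, against 46.7%, 52.6% and 47.5% with vehicle. Igfbp7 made up 41.6%, 46.7% and 45.7% with TNF-alpha, against 17.3%, 19.4% and 14.7% with vehicle. Igfbp3 stayed a minor part at 5.31% ± 0.25 with TNF-alpha and 1.37% ± 0.34 with vehicle. Without Igfbp7, the low-affinity relative, the other 5 summed to 327 ± 23.5 CPM per kilobase with TNF-alpha and 692 ± 25.1 with vehicle. The ratio of all 6 binding protein transcripts to ligand transcripts per length was 44.1, 57.7 and 40.3 with TNF-alpha, against 19.3, 19.8 and 22.5 with vehicle. This ratio includes Igfbp7, which rose, and the difference between the groups would be smaller without it. The ratio of Igf1r to Igf2r was 0.251, 0.211 and 0.223 with TNF-alpha, against 0.288, 0.273 and 0.322 with vehicle.

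**Figure D3:**
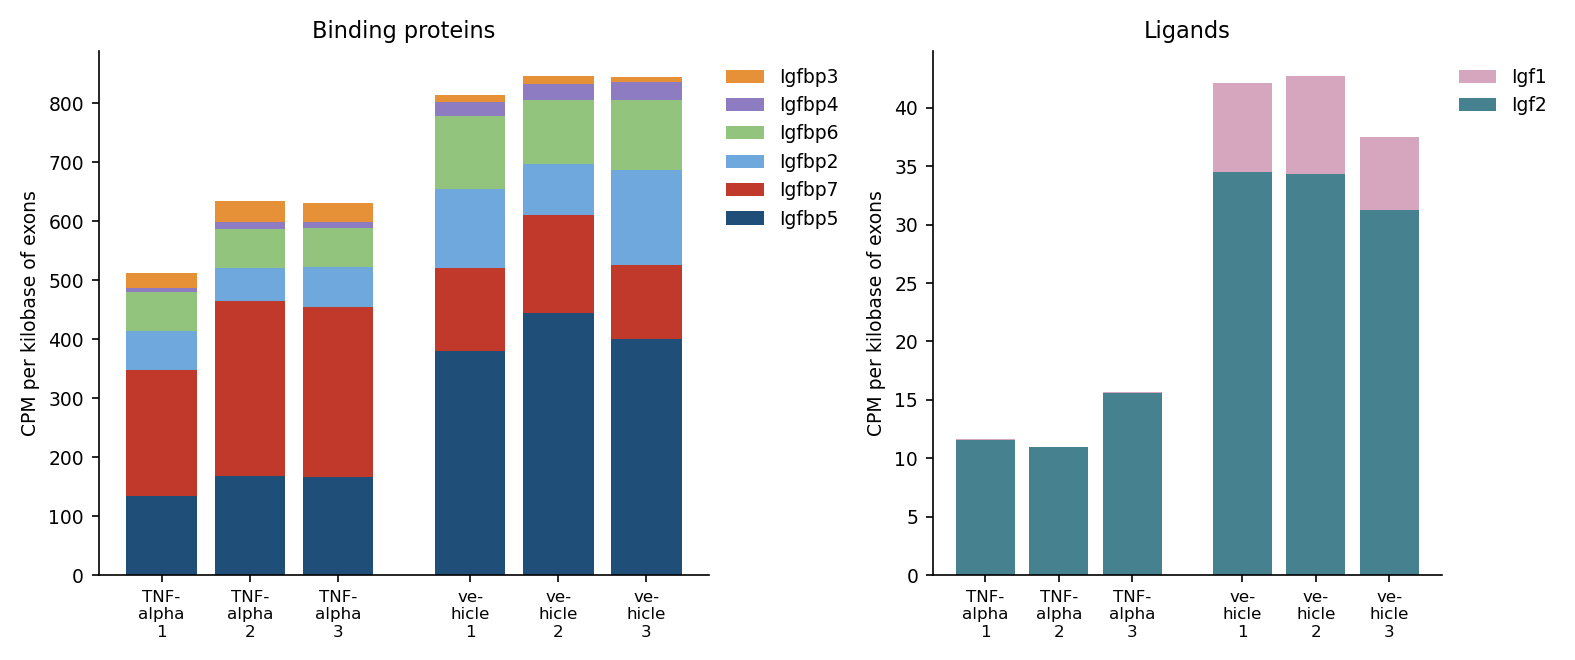
CPM per kilobase of exons (vertical axes from 0, different scales) in each library, stacked by gene, for the 6 binding protein transcripts (left) and the 2 ligand transcripts (right). The TNF-alpha bars are lower in both panels, Igfbp7 is the largest block with TNF-alpha and Igfbp5 with vehicle, and the Igf1 block is at most 0.493% of the ligand bar with TNF-alpha.

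Genes that act with the IGF family were read from 6 lists of 69 genes in all, without the members. Among the 64 tested there were 19 rises and 25 falls, so 68.8% passed, against 55.5% of all tested genes, and their median log2 fold change was -0.02. In the list of insulin-like receptors and carriers, both tested genes rose. Insr, the insulin receptor, which can pair with the IGF-1 receptor, stood at 76.6 ± 4.13 CPM with TNF-alpha and 59.1 ± 1.23 CPM with vehicle (SD, n = 3 each; log2 fold change 0.37 ± 0.06, edgeR adjusted p = 7.92e-04). Igfals, the acid-labile subunit of the serum IGF complex, rose by 1.28 ± 0.33 on the log2 scale but had at most 49 counts in a library. The other 3 genes of that list, Insrr, Igfbp1 and Igfbpl1, had at most 3 counts in any library.

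Proteases that cleave IGF binding proteins, and their inhibitors, moved in both directions. There were 4 rises and 6 falls among the 12 tested genes, 2 did not pass, and the median log2 fold change was -0.45. Mmp3, encoding stromelysin, a matrix protease that can cleave Igfbp3, stood at 749 ± 224 CPM with TNF-alpha and 61.7 ± 18.0 CPM with vehicle (SD, n = 3 each), a 12.1-fold rise (log2 fold change 3.60 ± 0.34, edgeR adjusted p = 3.45e-04). Pappa, which encodes the Igfbp4 protease PAPP-A, had 224, 225 and 271 counts with TNF-alpha, against 60.3, 67.0 and 87.1 counts with vehicle, and rose by 1.79 ± 0.20 on the log2 scale (edgeR adjusted p = 1.11e-04). Stc1, an inhibitor of PAPP-A, rose by 2.79 ± 0.40 on the log2 scale (edgeR adjusted p = 0.0019). The related protease gene Pappa2, whose product cleaves Igfbp3 and Igfbp5, fell by 2.05 ± 0.26, the serine protease gene Htra3 by 3.04 ± 0.17 and Adam9 by 0.48 ± 0.06 on the log2 scale (edgeR adjusted p = 4.16e-04, 5.08e-06 and 2.79e-04). Stc2, the other stanniocalcin gene of the list, named after its values were seen, fell by 0.49 ± 0.18 on the log2 scale (edgeR adjusted p = 0.0441), a call that was lost under 7 of 14 alternatives.

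Adaptors and genes of the PI3 kinase step also moved in both directions. Rises and falls were equal in number, 6 each, and 8 of the 20 tested genes did not pass. Irs1, the adaptor through which the IGF-1 receptor recruits PI3 kinase, stood at 37.5 ± 0.35 CPM with TNF-alpha and 96.4 ± 6.05 CPM with vehicle (SD, n = 3 each), a 2.57-fold fall (log2 fold change -1.36 ± 0.06, edgeR adjusted p = 8.3e-07). The PI3 kinase regulatory subunit genes Pik3r2 and Pik3r1 fell by 0.87 ± 0.09 and 0.67 ± 0.10 on the log2 scale. The adaptor genes Sos2 and Grb2 rose by 0.31 ± 0.07 and 0.23 ± 0.06 on the log2 scale.

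The AKT, mTOR and FOXO step had 6 rises and 7 falls among 23 tested genes, and 10 did not pass. Deptor, an mTOR inhibitor abundant in muscle, stood at 92.5 ± 10.4 CPM with TNF-alpha and 317 ± 21.6 CPM with vehicle (SD, n = 3 each), a 3.42-fold fall (log2 fold change -1.78 ± 0.09, edgeR adjusted p = 1.74e-06). Akt1 fell by 0.61 ± 0.06 and the S6 kinase gene Rps6kb1 by 0.45 ± 0.05 on the log2 scale. Eif4ebp1, a translation repressor that mTOR inactivates, rose by 0.92 ± 0.07, Foxo3, a transcription factor of atrophy genes that AKT restrains, by 0.91 ± 0.13, and the mTOR activator gene Rheb by 0.29 ± 0.06 (edgeR adjusted p = 1.09e-05, 7.52e-04 and 0.00428). Of the IGF2 mRNA-binding proteins, which bind and stabilise Igf2 and other transcripts, Igf2bp2 rose by 1.02 ± 0.08 and Igf2bp3 fell by 0.77 ± 0.16 with at most 308 counts in a library.

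**Figure D4:**
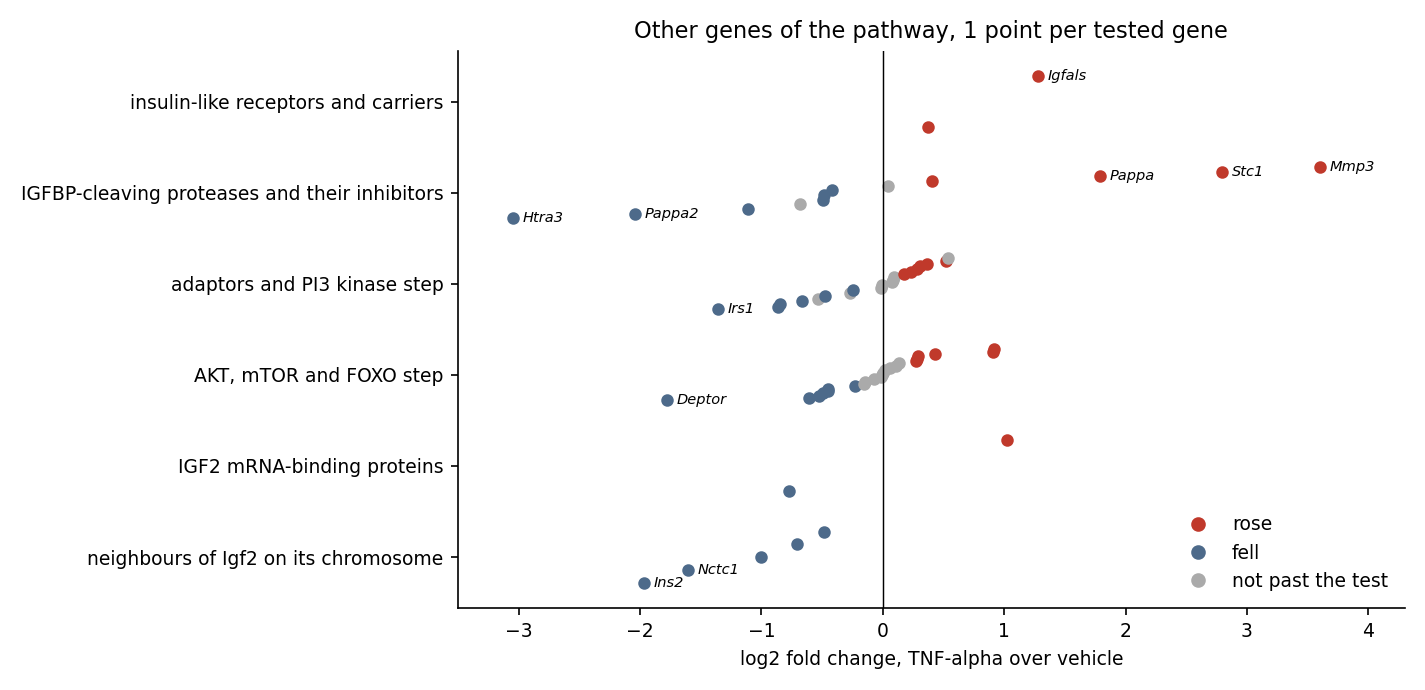
Log2 fold change of TNF-alpha over vehicle (horizontal axis) of each tested gene of 6 lists (rows), in red where it rose, blue where it fell and grey where it was not past the test, with names beside the points farthest from 0. The protease list spans the widest range, from Htra3 at -3.04 to Mmp3 at 3.60, and most genes of the kinase steps lie within 1 log2 unit of 0.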

How the data were processed

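Polyadenylated RNA of 3 TNF-alpha and 3 vehicle constructs was sequenced from stranded libraries, per the labels' protocols. The deposited table holds 1 value per gene symbol and library; the submitters' processing notes name TopHat2 2.1.1, Bowtie2 2.3.5.1, featureCounts of Subread 2.0.0 and GRCm38, and strand and overlap options of the counting are not given there. The authors deposited the values as counts, but 20.1% to 21.0% of them are not whole, so they were treated as estimated counts and rounded for the tests. Genes were kept by edgeR's filterByExpr (15792 of 24421), scaled with TMM and tested with edgeR 4.0.16 (R 4.3.3) by its robust quasi-likelihood test over the 2 groups, with Benjamini-Hochberg adjustment over all tested genes. The test's call threshold was an adjusted p of 0.05. Its steps were tested on simulated data with far fewer changed genes and the same spread setting for every gene. That check therefore does not measure error rates in these data. CPM per kilobase used the union of annotated exons (GENCODE M21). Totals of 81713008 to 93533748 counts limit the precision only for low genes, such as Igf1 with TNF-alpha. An exact permutation test of 3 against 3 cannot give a two-sided p below 0.1, so none is given. Alternatives were DESeq2 1.42.0, limma 3.58.1, other scalings and filters, a replicate block, the longest transcript as length and each library left out. The 3 listed genes with the smallest adjusted p in each direction were named per list, except for a gene that is not reported here. The members and lists were chosen with earlier results of these data known.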

Additional observations from a re-analysis of the deposited data

How the results depend on the processing

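Under the 14 alternatives for the test, 9 of the 10 members kept their call and direction. The exception was Igf2r, whose log2 fold change of 0.29 passed the test under DESeq2 (0.29, adjusted p = 0.0308) and, with each library left out in turn, ran between 0.21 and 0.40, with adjusted p from 0.00377 to 0.182 over all alternatives; the cause was not tested. The log2 fold change of Igf1 ran from -7.74 to -7.23. That of Igfbp2 ran from -1.23 to -0.81, so its change was not at least 2-fold under every alternative. The members that rose numbered 2 or 3 and those that fell 6 under every alternative. Of the pathway genes 17 to 19 rose and 23 to 27 fell. Over all genes 3674 to 4432 rose and 3747 to 4763 fell. The labels do not say whether libraries with the same replicate number were paired. Deviations of same-numbered libraries from their group means had correlations of 0.043, -0.045 and -0.11. These values show no clear shared deviation, but they cannot decide whether the constructs were made or treated in pairs. With a replicate block Igf2r passed (log2 fold change 0.28, edgeR adjusted p = 0.0185), and no other member's call changed. With the longest transcript as length, 26 of 46 levels and shares moved by more than 1 SD. Low counts limit Igf1 with TNF-alpha, at 23 to 53 counts. Among other genes named they limit Igfals, at 15 to 49 counts, Ins2, Igf2os, Dpt, Fgf14, Dcdc2a and Hist1h4a.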
